A study of Mesocricetus auratus with 8 samples.

Results

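The small heat shock proteins and their co-chaperone Bag3 were described in cultured satellite cells (SCs), the muscle stem cells, of the Syrian hamster, a hibernator, before and after exposure to cold. The 8 genes were Hspb1, Hspb2, Hspb3, Cryab, Hspb6, Hspb7, Hspb8 and Bag3, taken by their symbols in the deposited gene table, and all 8 were among the 17590 genes for which the table holds values. Their IDs in that table are 101844946 (Hspb1), 101828097 (Hspb2), 101840233 (Hspb3), 101827485 (Cryab), 101838256 (Hspb6), 101841830 (Hspb7), 101835699 (Hspb8) and 101838270 (Bag3).

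Small heat shock proteins share an alpha-crystallin domain, assemble into oligomers and hold unfolding client proteins in solution without using ATP. Muscle is known for expressing many of the family, in part at the Z-disc and along the filaments, and some members are induced in muscle differentiation as well as by heat through the transcription factor HSF1. BAG3 binds HSPB8 at one site and HSP70 at another, and with the ubiquitin ligase STUB1 this complex sends damaged filamin to autophagosomes, a route called chaperone-assisted selective autophagy.

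RNA was sequenced from 8 libraries, 4 control and 4 cold, of WT SCs from the hindlimb muscles of sexually mature males of 8 to 16 weeks, enriched by preplating and grown on Matrigel in growth medium (GM). Control SCs were kept at 37°C, and their titles give day 3 of GM culture, whereas their treatment labels give 3, 4, 5 and 6 days for control replicates 1, 2, 3 and 4. Cold SCs had 48 h at 37°C after plating, a further 24 h at 37°C in GM with 100 mM HEPES (GM-HEPES), and then 24 h at 4°C in the same medium. The study's text has RNA taken before and after the cold step, which puts the controls at the end of the 24 h in GM-HEPES at 37°C, although their labels name no HEPES. By that text and the titles the cold libraries were taken 24 h later in culture than the controls, whereas by the treatment labels control replicate 2 was of the same age and replicates 3 and 4 were older. With this conflict unresolved, temperature and time in culture cannot be told apart. What a replicate number marks, and which animals gave which library, is not given in the labels or methods, so p-values measure the spread between these libraries.

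The deposited expected counts summed to 16530747 to 18093905 per control library and 17388779 to 18533801 per cold library, a narrow range of depth. The SC markers Pax7 and Myod1 were present in every library, with a mean for Pax7 of 12.7 ± 2.17 TPM in the 4 controls and 13.5 ± 1.70 TPM in the 4 cold libraries, where ± gives the SD, as for all values here. TPM, the usual unit of transcript abundance, is a level per transcript length, so it allows genes to be set beside each other. Libraries 1 and 2 of both groups stood apart from libraries 3 and 4 along the first principal component of all genes, which held 54.5% of the variance, while the second, with 17.9%, separated cold from control. Control libraries 1 and 2 also held more transcript of late muscle genes, as given with those genes below, so the values of the 8 genes are given for every library and the edgeR fits with and without the replicate number as a block.

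Of the 8 genes, Hspb1, Cryab, Hspb2, Hspb8 and Hspb3 fell after cold exposure when libraries of the same replicate number were compared, while Hspb6 and Bag3 did not pass that test and Hspb7 did not pass its filter on low counts. Hspb1 had in the cold 46.6% of its mean control TPM, Cryab 55.9%, Hspb2 66.7%, Hspb8 71.8% and Hspb3 72.2%. Bag3 had 93.8% of its control level. The pairing by replicate number was inferred from the libraries tested here, since the labels do not explain the numbers. In the fit without the replicate number, none of the 7 genes tested passed the adjusted p threshold of 0.05 (edgeR quasi-likelihood test, Benjamini-Hochberg over 12506 genes), against 0.072% of all genes with a lower level in the cold. An unadjusted p under 0.05 was found for 5 of 7, against 4.13% of all genes, and in DESeq2, which also tested Hspb7, 3 of 8 passed the adjusted threshold, against 0.924%.

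**Figure D1:**
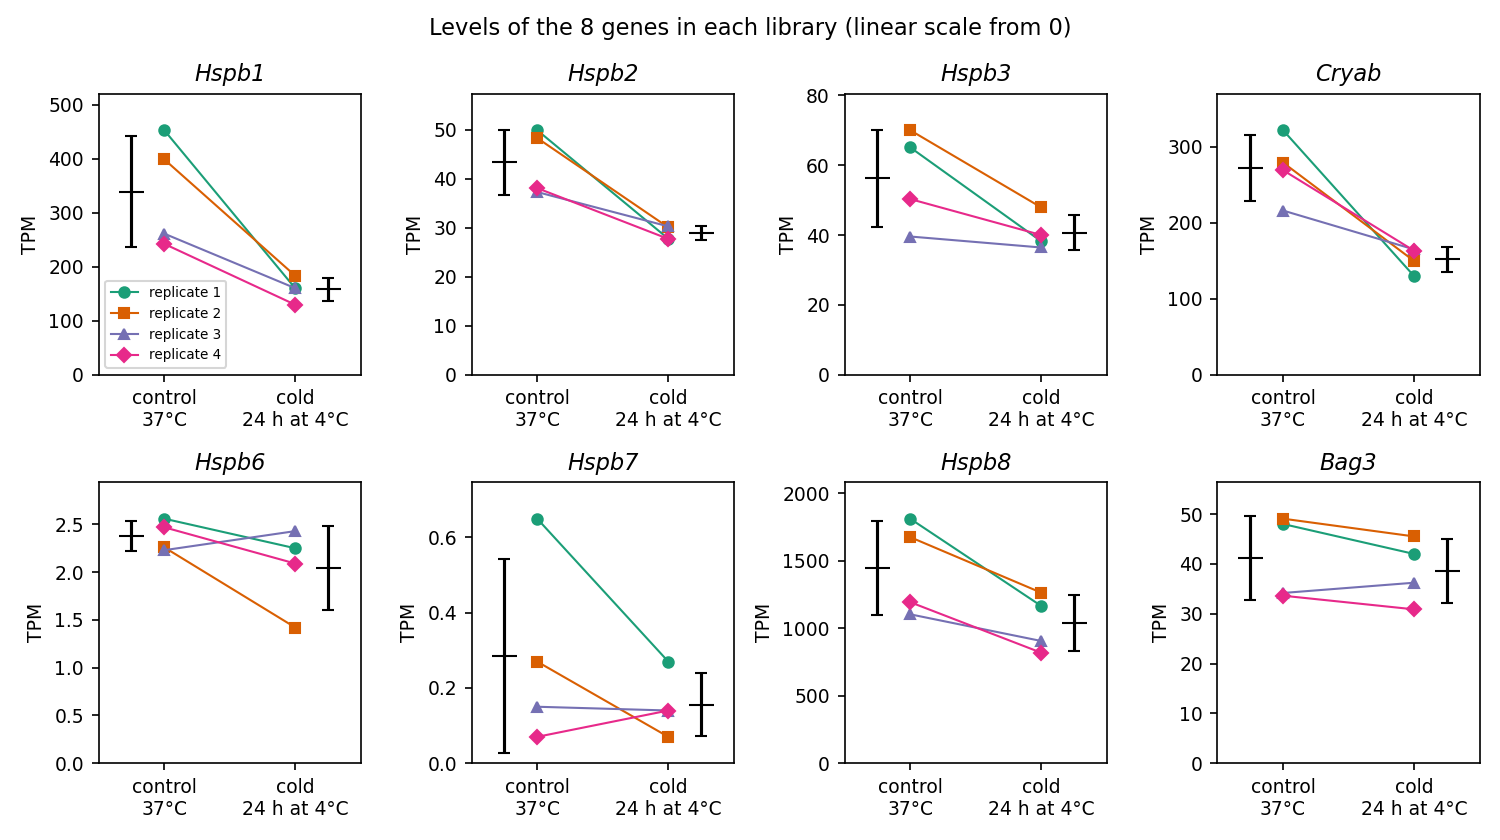
TPM of the 8 genes in the 4 control and 4 cold libraries, 1 panel a gene on a linear axis from 0, with lines joining libraries of the same replicate number and black bars for each group's mean ± SD. Hspb8 lies highest, at 818 to 1811 TPM, and Hspb7 lowest, at 0.07 to 0.65 TPM, and the groups do not overlap for Hspb1, Cryab and Hspb2.

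The 8 genes differed widely in level. Hspb8 ranked 115 of the 17590 genes by mean control TPM, Hspb1 ranked 424 and Cryab ranked 537. Hspb3, Hspb2 and Bag3 formed a middle tier at 56.3 ± 13.9, 43.4 ± 6.63 and 41.2 ± 8.48 TPM in control libraries, and the ranges of these 3 over libraries overlapped. Within a library, Hspb3 was above Hspb2 in 8 of 8 and above Bag3 in 7 of 8, cold library 1 being the exception. Hspb1 at 339 ± 103 TPM and Cryab at 272 ± 43.5 TPM also overlapped in the control libraries, and in the cold libraries they were at 158 ± 21.97 and 152 ± 16.3 TPM. Hspb6 and Hspb7 were near the floor of the family.

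Hspb8, the small heat shock protein that BAG3 carries, was the most abundant member in all 8 libraries. Its level was 1811, 1675, 1103 and 1193 TPM in control libraries 1 to 4 and 1165, 1263, 905 and 818 TPM in cold libraries 1 to 4. The groups overlapped, because cold libraries 1 and 2 lay above control library 3, and cold library 2 also above control library 4, yet in 4 of 4 pairs the cold value lay under the control of the same number. The mean difference in TPM, from 1446 ± 350 to 1038 ± 210, had an exact two-sided permutation p of 0.143, where 4 against 4 libraries cannot go below 0.0286. The edgeR log2 fold change was -0.50 (SE 0.21, adjusted p = 0.708) without the replicate block and -0.49 (SE 0.05, adjusted p = 6.35e-07) with it.

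Bag3, which links small heat shock proteins to HSP70, was near its control level in the cold. It was at 48.0, 49.1, 34.2 and 33.6 TPM in the controls and at 42.0, 45.5, 36.2 and 30.9 TPM in the cold. The values of the groups interleaved, and replicates 1 and 2 were the higher libraries in both. With the replicate block its edgeR log2 fold change was -0.11 (SE 0.05, adjusted p = 0.266). Its 95% interval, not adjusted for the number of genes, ran from -0.21 to -0.0018 and left out 0. The smallest decrease among the 5 genes that fell was that of Hspb3, at -0.47 with an interval from -0.66 to -0.28. Without the block the log2 fold change of Bag3 was -0.12, with a wider interval from -0.53 to 0.29, and -0.22 to -0.013 when 1 library was left out. On replicates 1 and 2 alone it was -0.21 (edgeR adjusted p = 0.0132), and on replicates 3 and 4 alone -0.0011.

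Relative to Bag3, the levels of the 3 most abundant members, Hspb8, Hspb1 and Cryab, were lower in the cold libraries, and the ratios of the other members to Bag3 were not computed. Hspb8 was 37.7, 34.1, 32.3 and 35.5 times Bag3 in TPM in the control libraries and 27.7, 27.7, 24.98 and 26.5 times in the cold libraries. Within each group this ratio varied less than the level of either gene, and the 4 cold ratios all lay below the 4 control ratios. The Hspb1 to Bag3 ratio was 9.43, 8.13, 7.65 and 7.21 in control and 3.80, 4.02, 4.42 and 4.19 in cold libraries, also without overlap. The Cryab to Bag3 ratio was 6.70, 5.69, 6.32 and 8.01 in the controls and 3.09, 3.28, 4.55 and 5.28 in the cold, again without overlap. For these 3 ratios the exact two-sided permutation p on the log2 ratio was 0.0286 each, the smallest this design can give, and 0.0357 after Benjamini-Hochberg adjustment over the 5 ratios computed. The 3 ratios share their denominator, and Hspb1 and Cryab did not overlap in TPM either, so they are not 3 separate results. The share of all genes whose ratio to Bag3 does not overlap between the groups was not computed. A ratio between genes of the same library does not depend on scaling between libraries.

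Hspb1, the ubiquitous small heat shock protein that binds actin and is phosphorylated by the p38 target MK2, had the largest decrease. Its level was 453, 399, 261 and 242 TPM in the controls and 159.7, 183, 160.2 and 129.5 TPM in the cold. Every cold library lay below every control library, by an exact two-sided permutation p of 0.0286, and the 4 cold libraries lay closer together than the controls. The edgeR log2 fold change was -1.08 (SE 0.08, adjusted p = 5.95e-08) with the replicate block and -1.12 (SE 0.22, adjusted p = 0.143) without it. Hspb1 is one of the genes the study picked out from these libraries, so its direction here is not independent evidence.

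Cryab encodes alpha B-crystallin, a chaperone of desmin and titin whose mutations cause desmin-related myopathy. It was at 322, 279, 216 and 269 TPM in the control libraries and at 129.6, 149.55, 165 and 163 TPM in the cold libraries. No cold library reached the lowest control library, number 3, and the exact two-sided permutation p was 0.0286. Its edgeR log2 fold change was -0.84 (SE 0.09, adjusted p = 3.54e-06) with the block and -0.86 (SE 0.13, adjusted p = 0.0560) without it. Without control replicate 3, the lowest control, the unblocked adjusted p of Cryab was 0.0096 in edgeR, and it was 0.122 to 0.249 when any other library was left out.

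Hspb2, which binds the myotonic dystrophy kinase DMPK, is listed beside Cryab in the RefSeq gene table. It was at 49.9, 48.3, 37.3 and 38.1 TPM in the controls and 27.7, 30.05, 30.25 and 27.7 TPM in the cold. The cold libraries were tightly grouped and all lay below the controls (exact two-sided permutation p = 0.0286). The edgeR log2 fold change was -0.60 (SE 0.08, adjusted p = 5.16e-05) with the block and -0.61 (SE 0.13, adjusted p = 0.159) without it. The ratio of Cryab to its neighbour Hspb2 was 6.28 ± 0.616 in control and 5.25 ± 0.533 in cold libraries, lower in 4 of 4 pairs but overlapping between the groups, with an exact two-sided permutation p of 0.0857.

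Hspb3, which forms complexes with HSPB2 in muscle, was at 65.15, 70.1, 39.6 and 50.3 TPM in the controls and at 38.2, 47.9, 36.4 and 40.01 TPM in the cold. Control library 3 lay among the cold libraries, so the groups overlapped and the exact two-sided permutation p was 0.0857. With the replicate block the edgeR log2 fold change was -0.47 (SE 0.09, adjusted p = 0.00280), and without it -0.49 (SE 0.19, adjusted p = 0.684).

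Hspb6, known for its phosphorylation by cyclic nucleotide-dependent kinases in smooth and cardiac muscle, was at 2.56, 2.26, 2.23 and 2.47 TPM in the controls and at 2.25, 1.42, 2.43 and 2.09 TPM in the cold, on 22 to 39 counts per library. These values overlapped, and the edgeR log2 fold change of -0.25 had a 95% interval from -0.63 to 0.13 with the block (adjusted p = 0.521). Without the block the value was also -0.25, and it was -0.12 when cold replicate 2, the library with 22 counts, was left out. Hspb7, a heart-enriched member that binds filamin C, had 9, 4, 2 and 1 counts in control and 4, 1, 2 and 2 counts in cold libraries. It did not pass the filter on low counts of the edgeR fits above, DESeq2 gave it an adjusted p of 1.0, and a difference was not detectable at this depth. The other 7 genes passed that filter, which asks for enough counts in at least 4 libraries.

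Read together, 7 of 7 tested genes had a negative log2 fold change, against 47.1% of the 12506 genes tested, and their median was -0.50, against 0.0071 over all genes. With the replicate block 5 of 7 fell at an adjusted p under 0.05, where 4.07% of all tested genes did, and Hspb1 alone also passed the log2 fold change of -1, where 0.808% did. Without the block 0 of 7 passed both thresholds, against 0.04% of all genes, and DESeq2 called 1 of 8, against 0.472%. TPM did not overlap between the groups, with cold lower, for 3 of 7 genes (2.41% of all tested), and cold was lower in 4 of 4 pairs for 5 of 7 (10.5% of all tested). A lower TPM in bulk RNA can come from less RNA in each cell or from fewer cells that express the gene, which cannot be told apart here.

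**Figure D2:**
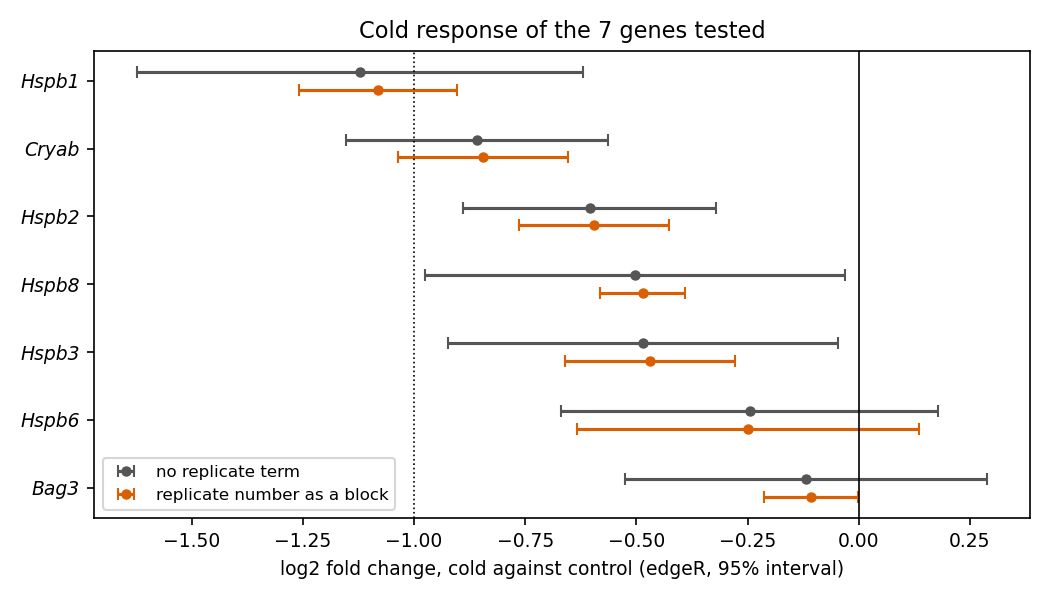
Log2 fold change of cold over control for the 7 tested genes in edgeR without and with the replicate number as a block, with 95% intervals and a dotted line at the fold threshold of -1. The estimates of both fits nearly coincide, from -1.12 for Hspb1 to -0.11 for Bag3, and the intervals are narrower with the block.

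The change within pairs of the same number varied from pair to pair. Hspb1 changed by -1.504, -1.12, -0.71 and -0.90 on the log2 TPM scale. Cryab changed by -1.31, -0.90, -0.39 and -0.72, and Hspb3 by -0.77, -0.55, -0.12 and -0.33. For each of these, pair 1 had the largest and pair 3 the smallest change. Hspb8 changed by -0.64, -0.41, -0.29 and -0.54, a smaller spread between pairs. Bag3 changed by -0.19, -0.11, 0.08 and -0.12. In edgeR on replicates 1 and 2 alone, 2 of the 7 genes, Hspb1 and Cryab, passed both thresholds, against 1.41% of all genes, and 6 passed the adjusted p alone, against 6.85%. On replicates 3 and 4 alone 0 of 7 passed both thresholds, against 0.214% of all genes, and 1 passed the adjusted p, against 0.381%, namely Hspb1 at a log2 fold change of -0.79 (edgeR adjusted p = 0.011). Whether the change differs between these sets of replicates was not tested.

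**Figure D3:**
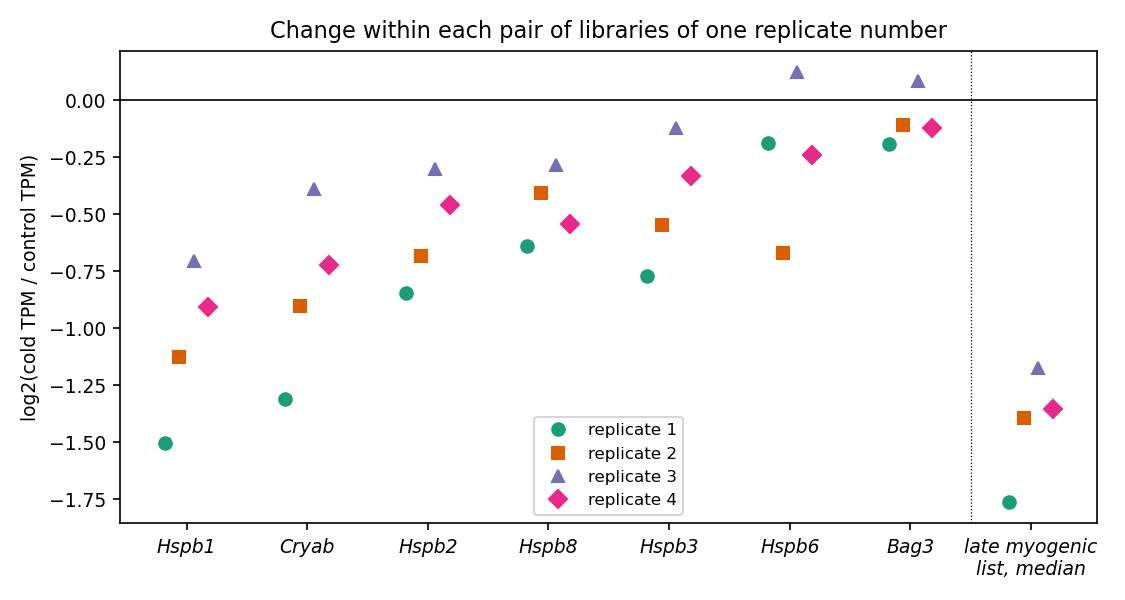
Log2 change in TPM, cold over control of the same replicate number, for the 7 tested genes and for the median of the late myogenic list. Hspb1 and Cryab are below 0 in all 4 pairs, pair 3 lies highest for each of the 7 genes, and Bag3 stays between -0.19 and 0.08.

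The make-up of the family in the cold libraries differed from that of the controls, as did its total. The summed TPM of the 7 small heat shock genes was 2705, 2474, 1660 and 1796 in control and 1523, 1675, 1299 and 1181 in cold libraries. Each cold sum was below the control of its number, although cold library 2 lay above control library 3, and the mean cold sum was 65.8% of the control mean. Hspb8 made up 66.9 ± 0.591% of the sum in control and 72.7 ± 3.77% in cold libraries, with no overlap. Hspb1 made up 15.5 ± 1.42% in control and 11.2 ± 0.795% in cold, also with no overlap. Cryab took 12.8 ± 1.63% and 10.99 ± 2.66%, which overlapped, although each cold share lay below the control of its number. The difference in the Cryab share was -1.81 points, and -2.76 to -0.99 points when 1 library was left out. The Hspb1 to Hspb8 ratio fell from 0.232 to 0.154 without overlap (exact two-sided permutation p = 0.0286, and 0.0357 adjusted over the 5 ratios).

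**Figure D4:**
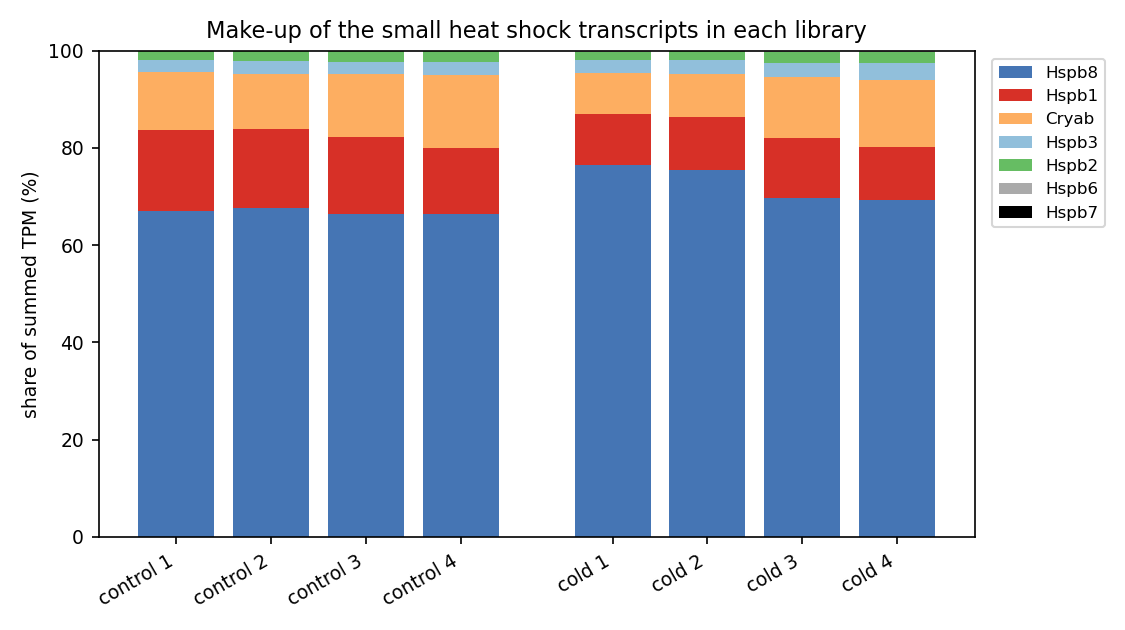
Share of each small heat shock gene in the summed TPM of the 7 genes, in percent, stacked in 1 bar for each library. Hspb8 lies at 66.4 to 67.7% in the controls and 69.3 to 76.5% in the cold, and Hspb1 at 13.5 to 16.8% and 10.5 to 12.3%.

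Most genes around BAG3 did not pass the test. Of 13 partners of its autophagy route, 11 had values and were tested, with 9 below and 2 above the control level and a median log2 fold change of -0.03, which was -0.071 without cold replicate 2 and -0.073 without cold replicate 3. With the replicate block 3 of 11 fell, where 4.07% of all tested genes did, and 0 rose. Without it 0 passed, 2 of 11 had an unadjusted p under 0.05 with a lower value, against 4.13% of all genes, and DESeq2 passed 1, against 0.924%. The 3 were Flnc, the filamin that BAG3 delivers to autophagy, at -0.45 (adjusted p = 1.63e-06 in edgeR with the block), Synpo2, which joins the BAG3 complex to membrane fusion, at -0.22 (adjusted p = 0.00472), and Map1lc3a, of the autophagosome membrane, at -0.18 (adjusted p = 0.024). Flnc was at 101, 96.6, 79.0 and 91.8 TPM in the controls and 66.5, 71.6, 64.7 and 68.6 TPM after cold, with no overlap. The 5 other BAG genes had a median of 0.0067, which turned negative without control replicate 1 or 2 or cold replicate 3, with 0 passing in edgeR with or without the block or in DESeq2, and at an unadjusted p under 0.05 without the block 1 of 5 was higher, against 2.57% of all genes, and with it 2 of 5, against 8.48%. Of the other small heat shock genes and binding proteins, 2 of 5 were tested, with 0 passing in any of these fits and 0 at an unadjusted p under 0.05.

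The regulators of the family did not pass either. The heat shock factor genes Hsf1, Hsf2 and Hsf4 were taken with Hsbp1, whose product binds and restrains HSF1. Of these, 0 of 4 passed in edgeR with or without the block or in DESeq2. Without the block 1 of 4 had an unadjusted p under 0.05, against 4.13% of all genes, with a lower value. With the block 2 of 4 did, against 9.76%, both with a lower value. The median was -0.10, which was -0.033 without cold replicate 1. Among 18 chaperones and co-chaperones that HSF1 activates, 14 had values, 5 lower and 9 higher, with a median of 0.017 and 0 passing in edgeR or DESeq2, and 1 of 14 at an unadjusted p under 0.05 with the block, higher, against 8.48% of all genes, and 0 without. That median was -0.026 without cold replicate 2. The inducible HSP70 genes Hspa1a and Hspa1b are listed without values and are not analysed here. Of 10 genes of the kinase pathway of HSPB1, which include those of p38 and MK2 but also other kinases, 9 were tested. They had a median of 0.027, with 0 passing in edgeR or DESeq2. With the block 2 of 9 had an unadjusted p under 0.05, both lower, against 9.76% of all genes, and without it 0 did. The sign of the median turned when control replicate 1 or 3 or cold replicate 3 or 4 was left out. The lowest median was -0.067, without cold replicate 4.

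Among the genes of the filaments and Z-disc that these chaperones attend, the 6 of the Z-disc and sarcomere and Dmpk fell, and the 4 intermediate filament genes and the 2 cytoplasmic actins did not pass the test. Of 13 such genes, 9 were lower and 4 higher, with a median of -0.18, which was -0.35 without cold replicate 3. With the block 7 of 13 fell, where 4.07% of all tested genes did, and 0 rose, and 4 also passed the fold threshold, against 0.808%. These were Myot and Myoz2, Z-disc proteins that bind filamin or calcineurin, Ldb3, which links the Z-disc to alpha-actinin, and Actn2, sarcomeric alpha-actinin, with log2 fold changes of -1.79, -1.19, -1.75 and -1.19. Myoz2 is also one of the genes the study picked out from these libraries. Without the block 0 passed, 6 of 13 had an unadjusted p under 0.05, all lower, against 4.13% of all genes, and DESeq2 passed 3, against 0.924%. Actn2 was at 175, 153, 73.3 and 80.3 TPM in the controls and 61.2, 68.7, 43.1 and 34.5 TPM in the cold, lower in each pair. Titin (Ttn) passed only with the block, at -0.18 (edgeR adjusted p = 0.0159, and 0.766 without it), with cold TPM under control TPM in 2 of 4 pairs. Desmin and vimentin, the intermediate filaments bound by CRYAB, did not pass with the block, with log2 fold changes of -0.09 (adjusted p = 0.408) and 0.07 (adjusted p = 0.244) in edgeR.

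Late muscle genes fell in the same libraries as the small heat shock genes. Cold values were below control for all 16 of a list of late myogenic genes. Their median log2 fold change was -1.47, and with the block 16 of 16 fell and 10 passed the fold threshold, against 4.07% and 0.808% of all tested genes. Of these genes, Myl4, Acta1, Myh3, Myl1, Tnnt1 and Mef2c were among those the study picked out from these libraries. The counts for the list are therefore not independent evidence. Without the block 1 was called, Myl4, the embryonic myosin light chain, at -2.57 in edgeR (adjusted p = 0.0301). The other leading genes with the block were Mybph (-2.30), a myosin binding protein, Tnnt1 (-2.18), slow troponin T, and Cav3 (-2.15), the muscle caveolin. Myog, the transcription factor of differentiation, averaged 738 ± 316 TPM in the controls and 449 ± 172 TPM after cold exposure, with an edgeR log2 fold change of -0.71 with the block (adjusted p = 2.96e-09). The summed TPM of the list was 12061, 12176, 6287 and 6994 in the controls and 5998, 7090, 4170 and 4189 in the cold, so that control libraries 1 and 2 stood highest. Small heat shock genes are known to rise in muscle differentiation, and the part of this in their values was not tested.

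**Figure D5:**
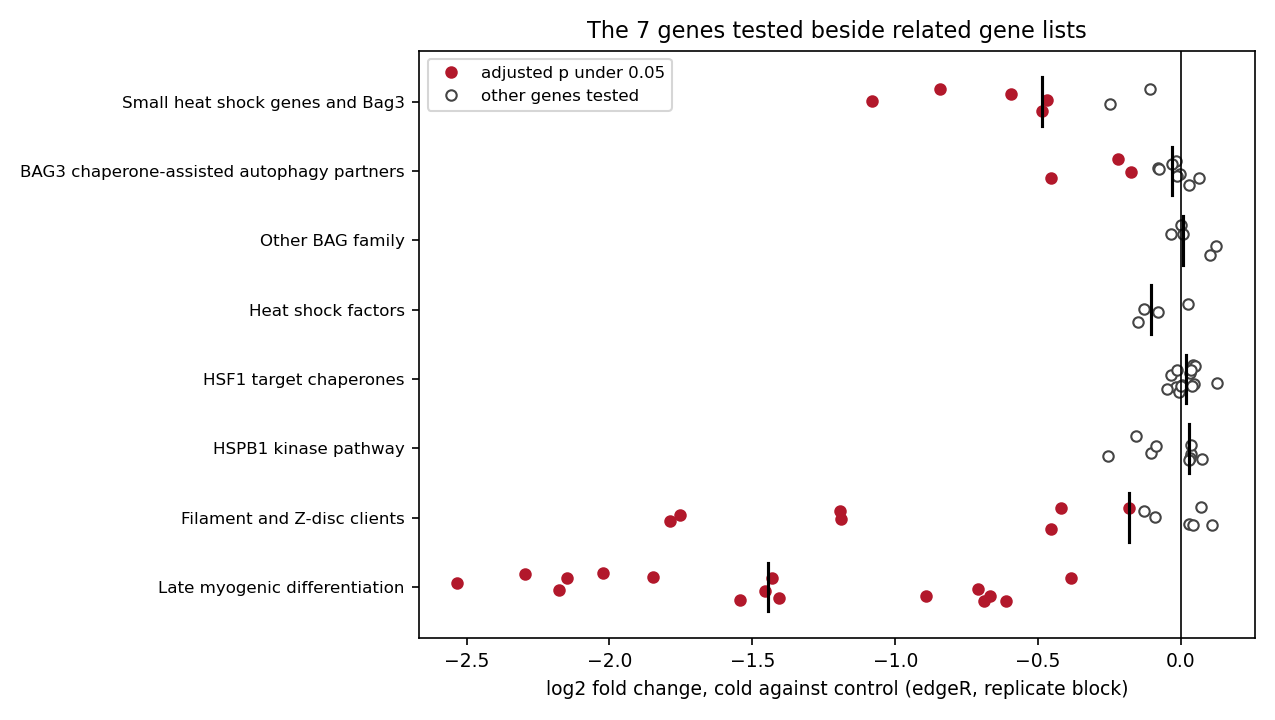
Log2 fold change of single genes, cold over control in edgeR with the replicate block, for the 7 tested genes and the related lists, with a bar at each list's median and filled points for an adjusted p under 0.05. The late myogenic list lies furthest to the left, and the heat shock factor, HSF1 target and kinase lists lie around 0.

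Markers of other cell types were followed beside these results. The 7 of 8 fibroblast markers with values summed to 1217 to 1739 TPM in control and 1201 to 1687 TPM in cold libraries, with 0 of 7 passing in edgeR with or without the block or in DESeq2, and 1 of 7 at an unadjusted p under 0.05 with the block, lower, against 9.76% of all genes. Smooth muscle and pericyte markers summed to 1191 to 2018 TPM in control and 1028 to 1323 TPM in cold libraries, and of these Acta2, smooth muscle actin, which myoblasts also express, fell by 0.46 on the log2 scale with the block (edgeR adjusted p = 2.68e-05, and 0.676 without it), 1 of 5 against 4.07% of all genes. The endothelial, glial and adipocyte lists summed to at most 4.14 TPM in any library. The 4 leukocyte markers summed to 25.9 to 54.2 TPM in control and 26.4 to 55.7 TPM in cold libraries. Most of this was Cd68, a lysosomal protein abundant in macrophages, at a mean of 34.1 TPM in the controls and 37.7 TPM in the cold, and Csf1r, the macrophage growth factor receptor, had 106 to 208 counts per library, while Ptprc, the pan-leukocyte marker, and Adgre1 were at or below 3 counts in every library. Of 6 SC and myoblast markers, summing to 1591 to 1948 and 1549 to 1805 TPM, 2 of 6 fell with the block, against 4.07% of all genes. These were Cdh15, M-cadherin, at -0.32 and Myod1 at -0.13, with adjusted p of 0.826 and 0.999 without the block in edgeR. The part of these markers in the small heat shock values was not tested.

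Genes of like profile were sought over the 8 libraries by the root mean square difference of log2(TPM + 0.1), each gene centred on its own mean, among 10486 genes. The nearest to Hspb1 were Prr32 at a difference of 0.136, Obsl1, a cytoskeletal linker of the sarcomere, at 0.150, and Gprc5c at 0.153. The nearest to Cryab were Tmem182 at 0.0953, Jph2, the junctophilin of muscle, at 0.1004, and Itga6, the integrin alpha 6 chain, at 0.106. The nearest to Bag3 were Cacfd1 at 0.0268, Pdrg1 at 0.0471 and Celf2 at 0.0569. Among the 7 of the 8 genes with a mean of at least 1 TPM, Hspb7 not being compared, Hspb3 and Hspb8 lay closest, at 0.167. Next came Hspb2 and Hspb3 at 0.168 and Hspb2 and Cryab at 0.179, and Hspb1 and Bag3 were 0.501 apart. Genes outside the family lay closer to each of these. Among the 10486 genes, Hspb8 ranked 49 for Hspb3 and Hspb3 ranked 66 for Hspb8. Cryab ranked 84 for Hspb2, and Hspb2 ranked 16 for Cryab.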

How the data were processed

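Paired-end reads of 150 bp from mRNA libraries (DNBSEQ-G400) were processed by the authors. The submitters' processing notes name HISAT and HISAT2, without versions, and the counting tool and genome build are not given in the sources used here. The deposited table holds, per gene and library, an expected count, the TPM, and a normalized count, a scaled signal that the authors obtained from the counts by 1 factor per library and that was used only for an alternative count of groups that did not overlap. Expected counts were rounded. Members and lists were chosen with earlier results of these data known.

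Counts were tested with edgeR 4.0.16 (TMM, filterByExpr, quasi-likelihood F test, Benjamini-Hochberg) in R 4.3.3 over all 8 libraries, with a call at an adjusted p under 0.05 and an absolute log2 fold change of at least 1. DESeq2 1.42.0 and limma 3.58.1 on log2(TPM + 0.1) were alternatives, besides other scalings, filters and left-out libraries. TPM and ratios were tested by exact two-sided permutation over 70 arrangements. Deviations from the group means correlated at 0.609 to 0.659 across genes where the replicate number was the same. Between numbers 1 and 2 the correlations were 0.569 and 0.591, and between numbers 3 and 4 they were 0.432 and 0.472. Only numbers 1 and 2 against 3 and 4 gave negative values, from -0.609 to -0.553. The numbers, which the labels do not explain, were taken to pair the libraries. These correlations separate numbers 1 and 2 from 3 and 4 more clearly than they separate single numbers. A block of these sets in place of single numbers was not tested. In simulated counts over 12435 genes, 99 of 100 genes changed by 1.5 on the log2 scale were recovered, and 96 of 100 changed by 2. These numbers were the same with and without the block, beside 15 false calls without it and 14 with it. Recovery of smaller changes, like those of the small heat shock genes and Bag3, was not tested. Whether both fits recover equally where libraries differ by replicate number, as the deposited ones did, was not tested either. Genes of a list were named if they passed an adjusted p of 0.05, at most 4 a list by size of change with the block. Pax7, Myod1 and Myog were named for identity and stage, and the 3 nearest genes for Hspb1, Cryab and Bag3. Desmin, vimentin, Ttn, Dmpk, Hsf1, Hsf2, Hsf4, Hsbp1, Hspa1a, Hspa1b, Ptprc, Adgre1, Cd68 and Csf1r fall outside this rule and were chosen after their values were seen. Acta1, Myh3, Myl1 and Mef2c were named because the study had picked them out.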

Additional observations from a re-analysis of the deposited data

How the results depend on the processing

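DESeq2, limma and edgeR without a filter on low counts tested all 8 genes, and the other fits 7. Of these, 0 passed both thresholds in edgeR without the replicate block, 1 with the replicate block, 1 in DESeq2 and 2 on replicates 1 and 2 alone. Passing the adjusted p alone were 0 without the block, 5 with the block, 3 in DESeq2, 1 with no filter on low counts, 6 on replicates 1 and 2 and 1 on replicates 3 and 4. Leaving out 1 library gave 0 to 1, the 1 being Cryab without control replicate 3. Over all genes, 5 were called, against 106 with the block, 8 with library totals, 68 in DESeq2, 15 with no filter, 3 with a mean of 10 counts, 2 and 3 in limma with pseudocounts of 0.1 and 1, 183 on replicates 1 and 2 and 28 on replicates 3 and 4, and 0 to 34 when 1 library was left out, with 34 without control replicate 3. In the pathway lists 1 was called, against 14 with the block, 2 with library totals, 10 in DESeq2, 2 with no filter, 0 in limma with 0.1, 15 on replicates 1 and 2, 8 on replicates 3 and 4, and 0 to 5 when 1 library was left out. Groups of TPM did not overlap for 3 genes, for 3 to 4 when 1 library was left out, for 4 with the deposited normalized counts, and 5 were lower in each pair. The median of the filament and Z-disc list was -0.35 without cold replicate 3 and -0.08 in limma, and that of the heat shock factor list was -0.033 without cold replicate 1, -0.21 on replicates 1 and 2 and -0.012 on replicates 3 and 4. When 1 library was left out, the medians of the HSF1 target, HSPB1 kinase and other BAG lists changed sign. So did that of the 2 genes tested among the other small heat shock genes and binding proteins, which ran from -0.086 to 0.073, the widest range of these. The causes were not tested. The log2 fold change was negative under all 18 alternatives for each of the 7 genes, from -1.35 to -0.79 for Hspb1, -1.15 to -0.56 for Cryab, -0.82 to -0.37 for Hspb2, -0.69 to -0.23 for Hspb3, -0.63 to -0.36 for Hspb8, -0.42 to -0.09 for Hspb6 and -0.22 to -0.0011 for Bag3. Adjusted p ranged over these alternatives from 1.86e-11 to 0.452 for Hspb1, 4.47e-10 to 0.249 for Cryab, 2.24e-07 to 0.509 for Hspb2, 1.14e-08 to 1.0 for Hspb8, 0.000118 to 1.0 for Hspb3, 0.394 to 1.0 for Hspb6 and 0.0132 to 1.0 for Bag3. Intervals cover the spread between libraries only, and Hspb7 and Hspb6 are limited by their counts.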
